A study of Bos indicus x Bos taurus with 78 samples.

Results

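miR-143 and miR-145 are a pair of microRNAs, short RNAs that lower the output of the messenger RNAs they match, and they were taken as the rows bta-miR-143 and bta-miR-145 of the count matrix, 2 of 1030 rows. Of all rows, 741 had at least 1 count in some steer. No row had counts identical to those of miR-143 or of miR-145.

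The genes of miR-143 and miR-145 lie next to each other and are transcribed together as 1 primary transcript. In the vessel wall the pair is known as a product of smooth muscle cells and pericytes, where serum response factor and myocardin drive it, and where it favours the contractile over the dividing state. Each mature miRNA is cut from its own hairpin, so the pair can share a transcript and still differ in mature level. Skeletal muscle fibres, which make up most of a muscle biopsy, are known for other miRNAs, above all miR-1 and miR-133a.

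Small RNA was sequenced from Longissimus lumborum biopsies, a muscle of the loin, of 78 male steers (Bos indicus x Bos taurus). The labels grade dark cutting, a meat defect in which the cut surface stays dark, as a fraction. The groups were 53 normal steers and 25 dark-cutting steers, of which 8 were graded 1/4, 9 were graded 1/3, 3 were graded 1/2, 4 were graded 2/3 and 1 was graded 3/4. No treatment was labelled, and ages are not given in the labels used here. Each library comes from 1 steer, and every test below was made over steers. Replicate numbers only count the steers of a group. The other label, the animal number in the title, lay under 600 for 18 normal and 8 dark-cutting animals, and at 600 or more for the other 35 and 17.

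The libraries held 1427817 to 4535675 counts each, with a median of 3209320. miR-1 alone took 84.1% ± 2.76 (SD, n = 78) of them, so the share of any other miRNA moves when that of miR-1 does. Levels are given as counts per 1e+06 counts of a library (CPM), which are such shares and still move with miR-1. Comparisons are therefore given on log2 CPM after TMM scaling, which sets libraries level on the bulk of their miRNAs. The genes that encode smooth muscle proteins were not measured, and miR-143 and miR-145 are themselves the only miRNAs listed for that cell type, so the cell source named for the pair could not be checked in these libraries. Epithelial miRNAs were near 0, with a median summed level of 0.562 CPM in normal and 0.669 CPM in dark-cutting steers over 5 rows, of which 1 was at 0 throughout. In a whole biopsy, fewer cells of a type and less RNA per cell cannot be told apart.

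miR-143 was the most abundant miRNA after miR-1. Its mean was 24980 CPM, which is 2.50% ± 0.91 (SD, n = 78) of all counts, with a range of 1.26% to 6.31%. It was in 2nd place in 57 steers, in 3rd place in 20 and in 4th place in 1, a steer of degree 1/2. Next below it in mean level came the skeletal muscle miRNA miR-133a at 19127 CPM. Leaving miR-1 out of the total, miR-143 made up 15.7% of the remaining counts. Between 32718 and 177854 counts per library stood behind these values, so that counting error alone, at the median count, was 0.359% of the value.

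miR-145 was far lower, at a mean of 233 CPM, place 56 of the 272 miRNAs tested over all steers. Its neighbours in mean level were miR-103 at 245 CPM and let-7d at 227 CPM. Its place in single steers ran from 32 to 69, with a median of 57. Counts per library ran from 299 to 1739, and counting error at the median count was 3.86% of the value. These intervals cover counting error only. Small RNA kits can take up one mature miRNA more readily than another, and the part of that in the difference between both levels was not tested.

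Both varied more from steer to steer than most of the 50 most abundant miRNAs did. Of the 37 miRNAs within 2-fold of miR-145 in mean CPM, 8 had a larger SD. Only 1 miRNA lay within 2-fold of miR-143, and its SD was not larger. The SD of log2 CPM over 78 steers was 0.50 for miR-143 and 0.39 for miR-145, beside a median SD of 0.26 over the 50 most abundant miRNAs and 0.45 over all 272. Of those 50, miR-32 alone exceeded miR-143 in SD, and 5 exceeded miR-145. The 5 were miR-143, miR-499, miR-27a-3p, miR-199a-3p and miR-32, which like the single one above were named after their values were seen. The biological coefficient of variation from edgeR was 33.6% for miR-143 and 28.2% for miR-145, with a median of 28.1% over all miRNAs. For both members this spread between steers was many times the counting error.

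**Figure D1:**
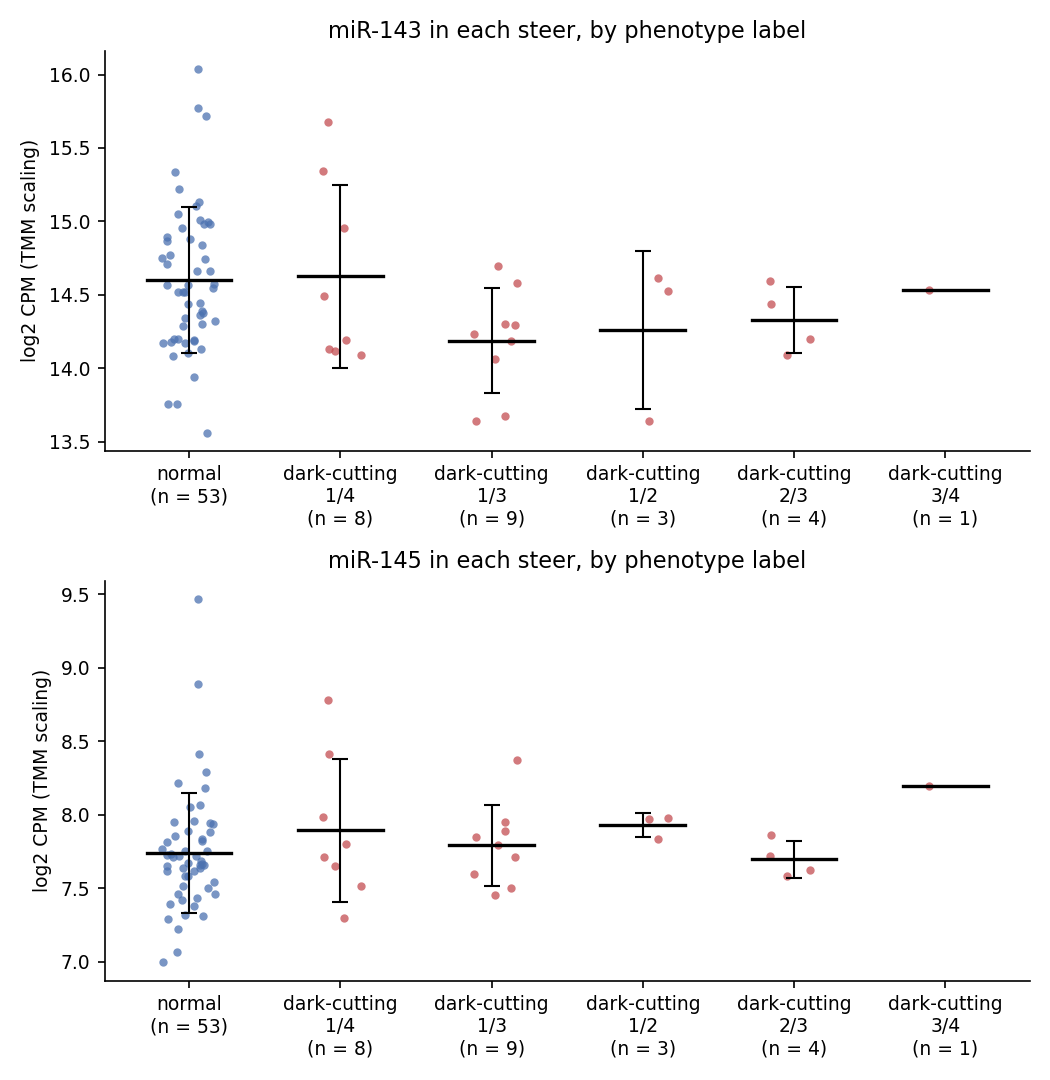
Log2 CPM after TMM scaling of miR-143 and of miR-145 in each steer (points) by labelled phenotype, with the group mean and SD. Every dark-cutting steer lies within the range of the 53 normal steers for both miRNAs, and normal replicates 33 and 42 are the highest 2 points of both panels.

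The highest levels of the pair belonged to 2 normal steers, replicates 33 and 42. Replicate 33 had 63087 CPM of miR-143 and 533 CPM of miR-145. Replicate 42 had 53061 CPM and 558 CPM. Both miRNAs were thus high together in these animals, and the dark-cutting 1/4 replicate 3 came next in miR-143 with 46937 CPM, beside 394 CPM of miR-145. The endothelial list did not stand high in either animal: its summed level was in place 65 and 77 of 78. The fibroblast list was in place 12 and 24, and the list of other vessel wall miRNAs in place 15 and 78. The part of cell makeup in these levels was not tested. Fold changes against normal steers, ratios and correlations were also computed without both steers. Both were picked for their high levels of the pair, and both are normal. Leaving them out therefore lowers the normal mean of either member, and p-values without them do not cover that choice.

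miR-143 was lower on average in dark-cutting than in normal steers, but the difference did not pass the test. In normal steers its log2 CPM was 14.60 ± 0.50 (SD, n = 53), with a lowest value of 13.56, a median of 14.55 and a highest of 16.04. In dark-cutting steers it was 14.37 ± 0.47 (SD, n = 25), from 13.64 through a median of 14.29 to 15.68. The groups overlapped fully, and 18 of 25 dark-cutting steers lay below the normal median. The fitted log2 fold change was -0.23 ± 0.12 (SE), with a 95% interval from -0.47 to 0.0066, or -14.7% as a percentage. Its p was 0.0567 and its adjusted p 0.416 by edgeR's quasi-likelihood test with Benjamini-Hochberg adjustment. In that fit it held place 28 by p among 252 miRNAs. Without normal replicates 33 and 42, the log2 fold change was -0.13 ± 0.10 (SE).

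miR-145 showed no such lower level. Its log2 CPM was 7.74 ± 0.41 (SD, n = 53) in normal steers, with a lowest value of 6.99, a median of 7.69 and a highest of 9.47. In dark-cutting steers it was 7.84 ± 0.33 (SD, n = 25), from 7.29 through 7.80 to 8.78, and 17 of 25 lay above the normal median. The log2 fold change was 0.07 ± 0.10 (SE), with a 95% interval from -0.12 to 0.26 and an adjusted p of 0.818 by edgeR. Without normal replicates 33 and 42 it was 0.19 ± 0.07 (SE), with p = 0.0140 before and 0.349 after Benjamini-Hochberg adjustment in edgeR.

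Neither member was called in this comparison, in which edgeR called 0% of 252 miRNAs. Before adjustment, 23 miRNAs (9.13%) had p under 0.05 in edgeR, and neither member was among them. DESeq2 and limma-voom also called 0, with 23 and 28 below 0.05 before adjustment. The authors' deposited table, whose header names no contrast, gives miR-143 a log2 fold change of -0.23 with an adjusted p of 0.605 from DESeq2, and miR-145 a log2 fold change of 0.08 with an adjusted p of 0.992. With the plain library total as scaling, the median over all miRNAs shifted by 0.11 on the log2 scale, and the fit gave -0.15 for miR-143 and 0.18 for miR-145.

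Animal number was looked at next. Below 600, miR-143 had a log2 fold change of -0.09 ± 0.19 (SE) and miR-145 one of 0.31 ± 0.13 (SE). At 600 or above the values were -0.27 ± 0.14 (SE) for miR-143 and -0.02 ± 0.13 (SE) for miR-145. The difference between both ranges was tested itself, with an edgeR interaction p of 0.525 for miR-143 and 0.141 for miR-145, and adjusted p of 0.977 and 0.852. Of 252 miRNAs, 0% were called for it, and 10 (3.97%) had p under 0.05 before adjustment.

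By degree, mean miR-143 stood in the order 1/4, normal, 3/4, 2/3, 1/2 and 1/3 from high to low. In the steers of degree 1/4 it was 14.63 ± 0.62 (SD, n = 8), from 14.09 through a median of 14.34 to 15.68. In those of degree 1/3 it was 14.19 ± 0.36 (SD, n = 9), from 13.64 through 14.24 to 14.70, and 7 of 9 lay below the normal median. The 3 steers of degree 1/2 had 13.64, 14.53 and 14.62, so that 1 animal set the low mean. The 4 steers of degree 2/3 had 14.20, 14.59, 14.09 and 14.44, and the single steer of degree 3/4 had 14.53. Neighbours in this order differed by less than the SD of any group of more than 1 steer among them, and no degree lay apart from the normal steers.

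Mean miR-145 followed another order: 3/4, 1/2, 1/4, 1/3, normal and 2/3 from high to low. It was 7.89 ± 0.49 (SD, n = 8) at degree 1/4, from 7.29 through 7.76 to 8.78. At degree 1/3 it was 7.79 ± 0.28 (SD, n = 9), from 7.45 through 7.79 to 8.37. The steers of degree 1/2 had 7.97, 7.98 and 7.84, and those of degree 2/3 had 7.62, 7.72, 7.58 and 7.86. The steer of degree 3/4 had 8.20. All of these lay within the normal range, and among groups of more than 1 steer neighbours in the order differed by less than the SD of either group.

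Against the same 53 normal steers, which all degrees share as controls, the largest difference of miR-143 was at degree 1/3, where the log2 fold change was -0.47 ± 0.18 (SE), with a 95% interval from -0.83 to -0.10. Its p was 0.0126 before and 0.409 after Benjamini-Hochberg adjustment in edgeR, so it was not called. There, edgeR called 0% of 272 miRNAs and 25 (9.19%) had p under 0.05 before adjustment, miR-143 among them, with 25 in DESeq2 and 27 in limma-voom, which called 0 too. miR-145 at the same degree had 0.0060 ± 0.15 (SE). Its 95% interval ran from -0.29 to 0.30, so the lower mean of miR-143 at this degree had no counterpart beyond that interval in miR-145.

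At degree 1/4 the log2 fold change was 0.06 ± 0.18 (SE) for miR-143 and 0.16 ± 0.15 (SE) for miR-145. At degree 1/2 it was -0.37 ± 0.30 (SE) and 0.12 ± 0.24 (SE), and at degree 2/3 it was -0.35 ± 0.26 (SE) and -0.11 ± 0.22 (SE). The smallest adjusted p among these was 0.988 in edgeR. With normal replicates 33 and 42 left out, miR-145 at degree 1/4 had 0.27 ± 0.11 (SE), with p = 0.0212 before and 0.991 after Benjamini-Hochberg adjustment in edgeR, and at degree 2/3 it turned to 0.06 ± 0.16 (SE). miR-143 then had 0.15 ± 0.16 (SE) at degree 1/4 and -0.19 ± 0.22 (SE) at degree 2/3. At degree 1/3 the values were -0.39 ± 0.16 (SE) for miR-143 and 0.09 ± 0.11 (SE) for miR-145, and at degree 1/2 they were -0.31 ± 0.26 (SE) and 0.19 ± 0.18 (SE). Neither member was called at any of these degrees. At degrees 1/4 and 1/2 edgeR called 0%, with 3 (1.1%) and 13 (4.78%) of 272 under 0.05 before adjustment. DESeq2 and limma-voom called 0 there as well, with 6 and 7 under 0.05 before adjustment at degree 1/4 and 13 and 15 at degree 1/2. At degree 2/3 edgeR called 1 of 272 miRNAs (0.368%), and 7 (2.57%) had p under 0.05 before adjustment. The single steer of degree 3/4 was not tested.

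**Figure D2:**
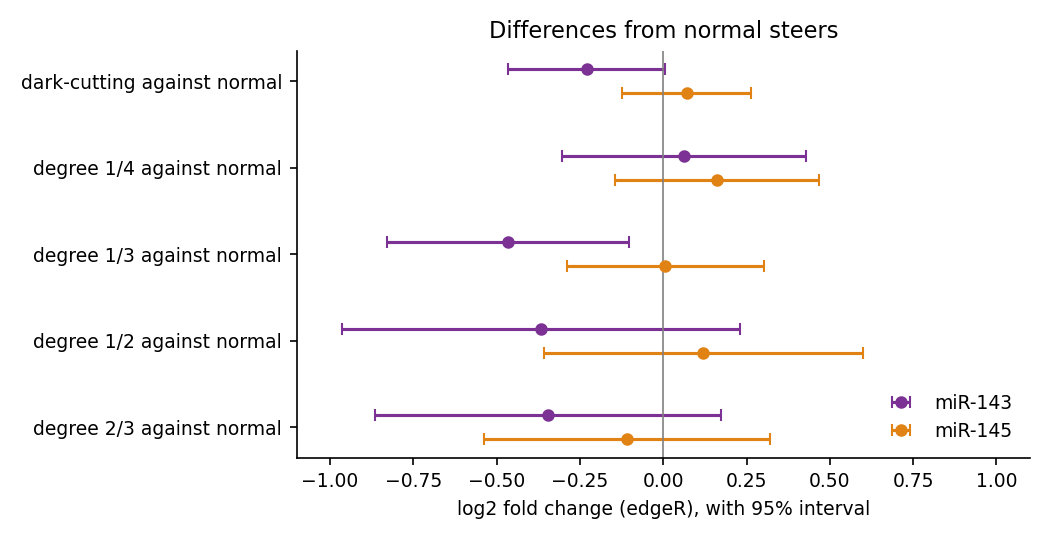
Log2 fold change of miR-143 and miR-145 from edgeR (points) with its 95% interval (bars) for dark-cutting steers and for each degree, all against the same 53 normal steers. The interval of miR-143 leaves 0 out at degree 1/3 alone, before adjustment, and every interval of miR-145 spans 0.

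With normal steers set to 0 and the labelled fraction as degree, miR-143 had a slope of -0.59 ± 0.27 (SE) on the log2 scale per unit of degree, with p = 0.0300 and an adjusted p of 0.355 by edgeR. miR-145 had a slope of 0.11 ± 0.22 (SE) and an adjusted p of 0.884. Neither slope was called, and 1 of 272 miRNAs (0.368%) was by edgeR, 3 by DESeq2 and 0 by limma-voom. Before adjustment 30 (11%) had p under 0.05 in edgeR, miR-143 among them. Leaving out normal replicates 33 and 42, the slope of miR-143 was -0.39 (p = 0.104, no longer under 0.05) and that of miR-145 was 0.34 (p = 0.0493), with adjusted p of 0.460 and 0.386 by edgeR. Within the 25 dark-cutting steers the slopes were -0.62 ± 0.53 (SE) for miR-143 and -0.24 ± 0.40 (SE) for miR-145, with an adjusted p of 0.998 for both by edgeR, where 0% of 251 were called and 9 (3.59%) had p under 0.05 before adjustment. Steers of degree 1/2 or more differed from those of 1/3 or less by -0.15 ± 0.19 (SE) in miR-143 and -0.05 ± 0.14 (SE) in miR-145, with 0% of 251 called by edgeR and 6 (2.39%) under 0.05 before adjustment. In both of these comparisons DESeq2 and limma-voom called 0, with 9 and 9 under 0.05 before adjustment for the slope and 7 and 5 for the higher degrees. The slope of miR-143 within dark-cutting steers moved with single steers and with the scaling: it was -0.23 without degree 1/4 replicate 3 and -0.39 without degree 1/4 replicate 8. It was -0.31 on total count and -0.28 with the total without miR-1, where the difference between higher and lower degrees was -0.06 under either scaling. Among dark-cutting steers, then, no change of either miRNA with degree was detectable.

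The ratio of miR-143 to miR-145 within a library needs no scaling and compares both members directly. It was chosen with their fold changes in these data known. In normal steers the ratio of counts was 121 ± 32.5 (SD, n = 53), from 56.3 through a median of 113.9 to 187. In dark-cutting steers it was 97.6 ± 33.3 (SD, n = 25), from 51.2 through 95.7 to 204. The groups overlapped, but 20 of 25 dark-cutting steers lay below the normal median and 4 lay below the lowest normal steer, while 1 lay above the highest.

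On the log2 scale the ratio was 6.86 ± 0.40 (SD, n = 53) in normal and 6.53 ± 0.47 (SD, n = 25) in dark-cutting steers, a difference of -0.33 ± 0.11 (SE), or -20.3%. A two-sided permutation test gave p = 0.0024, adjusted to 0.0119 over the 5 ratios tested. Since both fold changes were known to differ in sign when this ratio was chosen, its p in part restates that observation, and the adjustment does not cover the choice. As background, 272 of the 31626 ratios between pairs of tested miRNAs (0.86%) had a difference at least as large relative to its SE. The adjusted p reached at most 0.0261 when any 1 steer was left out, and without normal replicates 33 and 42 it was 0.0110, by the same permutation test.

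The 4 dark-cutting steers below the normal range came from 3 degrees. Their ratios were 52.98 at degree 1/4, 52.8 and 55.7 at degree 1/3 and 51.2 at degree 1/2. The steer above the normal range, at 204, was of degree 1/4. Degree 1/4 therefore held values at both ends, with a mean of 115 ± 48.1 (SD, n = 8). At degree 1/3 the mean was 87.3 ± 22.5 (SD, n = 9), and 8 of 9 lay below the normal median. The other steers of degree 1/2 had 93.7 and 110, those of degree 2/3 had 95.7, 117, 91.4 and 95.5, and the steer of degree 3/4 had 81.0.

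Within animal numbers below 600 the log2 difference of the ratio was -0.45 ± 0.19 (SE), with an exact permutation p of 0.0106, adjusted to 0.0243, and 7 of 8 dark-cutting steers lay below the normal median. At 600 or above it was -0.27 ± 0.12 (SE), with a permutation p of 0.0309, adjusted to 0.154, and 14 of 17 lay below. The direction was thus the same in both ranges, and the larger range did not pass the threshold after adjustment.

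Set against other miRNAs, the ratios of either member alone depended on which steers were kept. miR-143 over miR-1, the muscle fibre miRNA, differed by -0.10 ± 0.11 (SE) and over miR-126-3p, the endothelial miRNA, by -0.12 ± 0.10 (SE), with adjusted permutation p of 0.406 and 0.337. miR-145 over miR-1 differed by 0.22 ± 0.12 (SE) and over miR-126-3p by 0.20 ± 0.11 (SE), both with an adjusted permutation p of 0.157. None of the 4 ratios passed over all 78 steers. When normal replicates 33 and 42 were left out, miR-145 passed over miR-1 (0.28 ± 0.12, SE, adjusted permutation p = 0.0374) and over miR-126-3p (0.27 ± 0.10, SE, adjusted permutation p = 0.0121). Both steers had been picked for the highest levels of the pair, so leaving them out could only raise these differences of miR-145. The p-values do not cover that choice. At animal numbers below 600 it passed over both as well, with 0.54 and 0.41 and an adjusted exact permutation p of 0.0243 for each, and there miR-143 over miR-1 was 0.08, the same sign as miR-145.

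**Figure D3:**
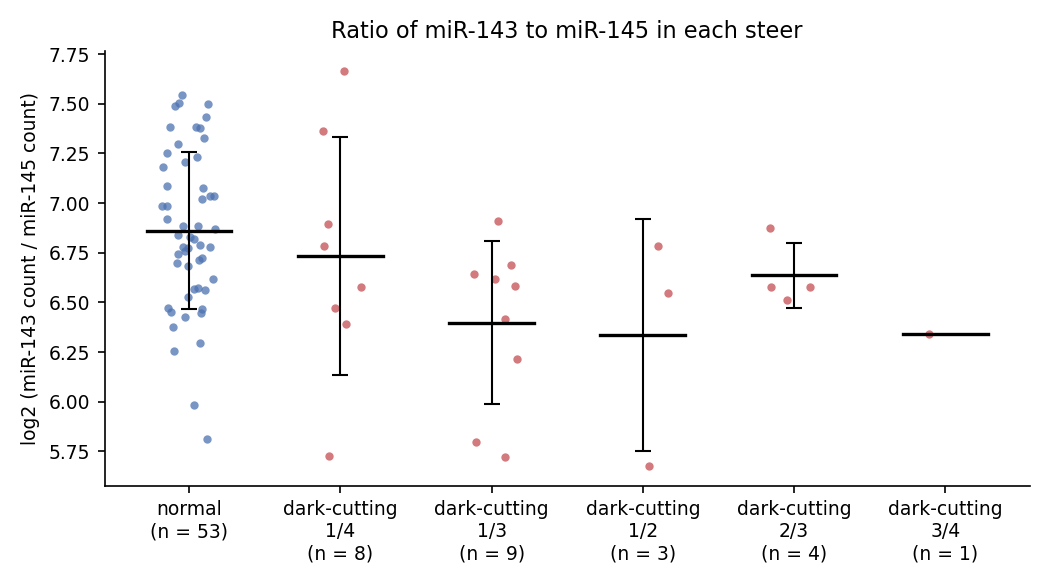
Ratio of miR-143 to miR-145 counts in each steer (points) by labelled phenotype, as log2 on the vertical axis, with the group mean and SD of the log2 values. Of the 25 dark-cutting steers, 20 lie below the normal median and 4 below the lowest normal steer.

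Across steers, miR-143 and miR-145 rose and fell together in part. Pearson's r of log2 CPM was 0.52 over 78 steers, with a permutation p of 1e-05, the smallest that 100000 resamples can give, and an adjusted p of 0.00013 over the 13 relations computed. Spearman's rho was lower, 0.31, with a permutation p of 0.0065 and an adjusted p of 0.0281. The 2 steers farthest from the median of miR-145 were normal replicates 33 and 42, and without them r was 0.34 (permutation p = 0.0024) and rho 0.25. A part of the relation therefore rested on these 2 animals, and r stayed above 0 without them.

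Within normal steers r was 0.63, and within dark-cutting steers it was 0.36, with a permutation p of 0.0799. The difference between these was not tested. Within animal numbers below 600 r was 0.47, and at 600 or above it was 0.56. Scaling by total count gave 0.60, and scaling by the total without miR-1 gave 0.31, with rho at 0.12. The relation had the same sign in every one of these settings, and its size moved with the scaling.

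**Figure D4:**
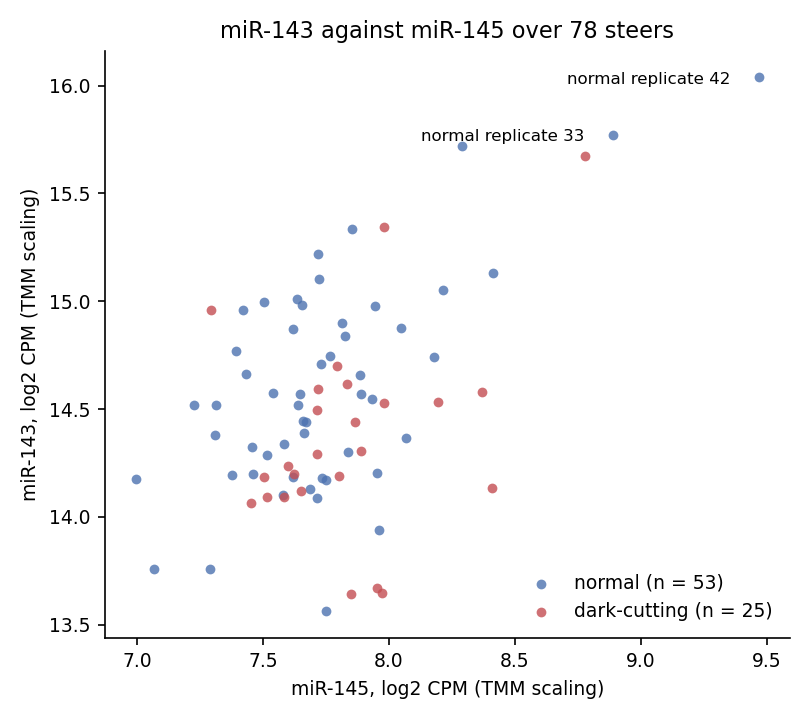
Log2 CPM (TMM scaling) of miR-143 (vertical) against that of miR-145 (horizontal) in each of 78 steers, coloured by phenotype. The points spread along a rising band (Pearson's r 0.52), with normal replicates 33 and 42 at its upper end.

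Relations with miRNAs of other cells changed in size, and some in sign, with the scaling, and no difference between the members in them was tested. After TMM scaling miR-143 had r = 0.44 and rho = 0.54 with miR-126-3p, with adjusted permutation p of 0.00058 and 0.00013. This r was 0.59 without normal replicates 33 and 42 and 0.38 without the 2 steers farthest from the median of miR-126-3p. Within dark-cutting steers r was 0.51 and at animal numbers below 600 it was 0.48. There r missed the adjusted threshold (adjusted permutation p = 0.0626 and 0.0875), while rho passed (adjusted permutation p = 0.0114 and 0.0079). miR-145 had r = -0.03 and rho = 0.02 with miR-126-3p. On shares of the total count, r with miR-126-3p was 0.46 for miR-143 and 0.43 for miR-145, with adjusted permutation p of 0.000052 and 0.00013. With the total without miR-1 it was 0.08 and -0.25, and neither passed (adjusted permutation p = 0.795 and 0.0804). With miR-1, r was 0.30 and rho 0.28 for miR-143 (adjusted permutation p = 0.0326 and 0.0406), and -0.23 with rho = -0.42 for miR-145, where rho passed (adjusted permutation p = 0.0015) and r did not (adjusted permutation p = 0.105). Without the 2 steers farthest from the median of miR-1, r with miR-1 was 0.29 for miR-143 and -0.29 for miR-145, and both passed (adjusted permutation p = 0.0396 for both). On shares of the total count, miR-1 is nearly the whole total, and r with it was -0.53 for miR-143 and -0.74 for miR-145, so the sign for miR-143 depended on the scaling. For miR-145 the sign stayed negative, with r = -0.44 in the total without miR-1 (adjusted permutation p = 0.00058). After TMM scaling it was -0.20 within normal and -0.27 within dark-cutting steers, and neither passed (adjusted permutation p = 0.328 and 0.641).

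With miR-21-5p, a miRNA of fibroblasts and remodelling vessel walls, r was 0.29 for miR-143 (adjusted permutation p = 0.0326) and rho was 0.18 (adjusted permutation p = 0.200). Without the steers farthest from the median of miR-21-5p, r was 0.23 and did not pass (adjusted permutation p = 0.107). After TMM scaling the other 7 relations had r between -0.05 and 0.18 and adjusted permutation p of 0.253 or more, and rho between -0.12 and 0.24 with adjusted permutation p of 0.0819 or more. They were miR-143 with miR-133a (r = -0.02), with the red blood cell miRNA miR-451 (0.18) and with log10 total count (-0.05), and miR-145 with miR-21-5p (0.09), miR-133a (0.05), miR-451 (0.01) and log10 total count (0.01). On shares of the total count, 4 of these passed: miR-145 had r = 0.57 with miR-21-5p, 0.44 with miR-133a and 0.30 with miR-451, and miR-143 had 0.32 with miR-451, with adjusted permutation p of 0.0105 at most. With the total without miR-1, miR-143 had r = -0.45 with miR-133a (adjusted permutation p = 0.00058). After TMM scaling without normal replicates 33 and 42, miR-143 had r = 0.28 with miR-451 (adjusted permutation p = 0.0418). The relations with library depth did not pass under any of these scalings.

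Over the 271 other tested miRNAs, those most like miR-143 in log2 CPM across 78 steers were miR-24-3p and miR-146a, with r = 0.65 each, miR-28 (0.65), miR-148a (0.59) and let-7i (0.56). miR-146a is known from the immune response. miR-145 itself was in place 9. Lowest were miR-22-5p (-0.47), miR-378c (-0.47) and miR-660 (-0.46). The median r over all miRNAs was -0.02, and 10 had r above 0.5.

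Those most like miR-145 were miR-455-3p (0.59), miR-140 (0.57), miR-218 (0.56), miR-143 (0.52) and miR-28 (0.47). miR-140 and miR-455-3p are known from cartilage, and miR-218 is encoded within SLIT genes. Lowest were miR-30e-5p (-0.37), miR-2285o (-0.35) and miR-450b (-0.34). Of the 20 miRNAs most like each member, out of 271 ranked, 5 were shared, which is 25% of either list. With the total without miR-1 as scaling, 3 were shared. Without normal replicates 33 and 42, miR-145 fell to place 39 for miR-143, and miR-143 to place 12 for miR-145. With miR-145, r was then 0.64 for miR-455-3p, 0.37 for miR-140, 0.39 for miR-218 and 0.37 for miR-28. With miR-143 it was 0.67 for miR-146a, 0.65 for miR-24-3p, 0.60 for miR-28 and 0.58 for miR-148a. let-7i fell to place 14 for miR-143 (r = 0.48), and miR-218 and miR-140 had r of 0.43 and 0.27 with it. All these values come from the same 78 libraries and share their scaling, and are given as a description.

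**Figure D5:**
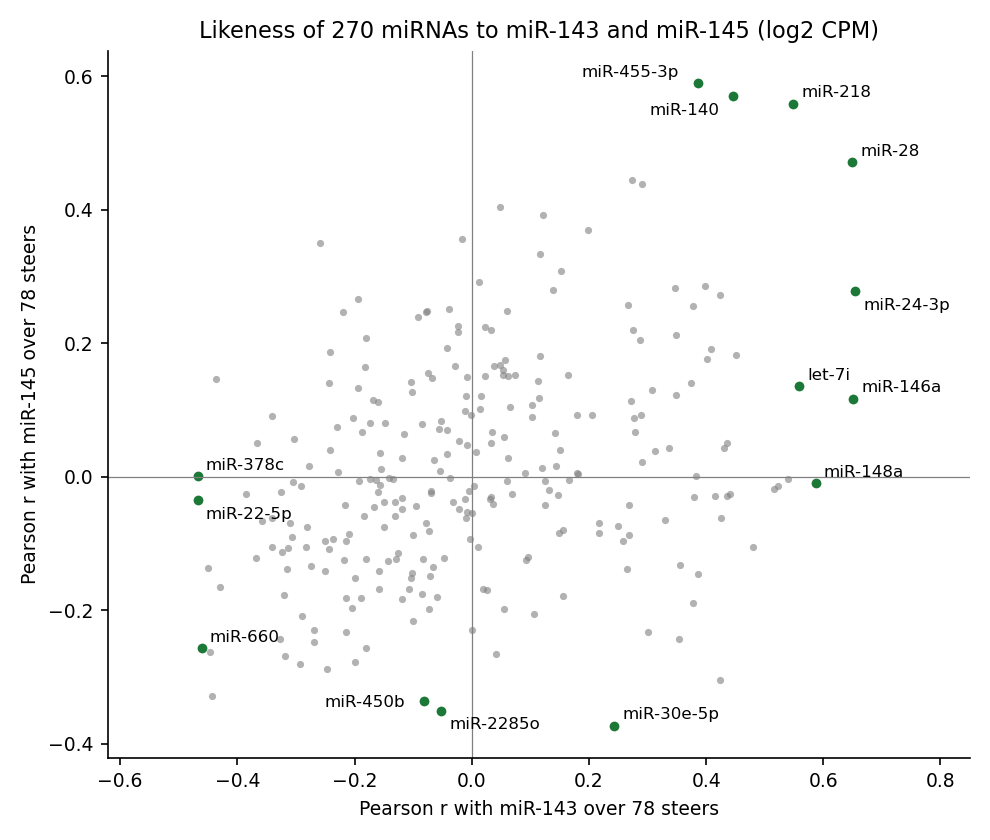
Pearson's r of log2 CPM over 78 steers with miR-143 (horizontal) and with miR-145 (vertical), 1 point per tested miRNA, with the highest and lowest for each member named. miR-28, miR-218 and miR-140 lie high on both axes, while miR-146a, let-7i and miR-148a lie high for miR-143 alone.

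Lists of miRNAs known from other cells of a muscle biopsy were set beside the pair. The lists overlap in miR-21, miR-146a, miR-221, miR-222 and miR-486. None of their tested members was called in dark-cutting against normal steers. Over all 252 miRNAs the median log2 fold change was -0.0091, and 136 (54%) lay below 0. Before adjustment, 23 (9.13%) of them had p under 0.05 in edgeR. Among white blood cell miRNAs all 7 tested lay below 0 with a median of -0.15, and 2 had p under 0.05 before adjustment in edgeR, miR-142-5p with -0.38 ± 0.13 (SE) and miR-146a with -0.42 ± 0.16 (SE). Their summed level had a median of 180 CPM in normal steers, with a range of 78.8 to 408, and of 159 CPM in dark-cutting steers, with a range of 80.9 to 287. The median r of this list was 0.38 with miR-143, from -0.0013 to 0.65, and 0.11 with miR-145. Its part in the levels of miR-143 was not tested.

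Among 5 red blood cell miRNAs, 4 lay below 0 with a median of -0.17, and 3 had p under 0.05 before adjustment. miR-144, named after its values were seen, had -0.86 ± 0.27 (SE), miR-451 -0.52 ± 0.25 (SE) and miR-16a -0.17 ± 0.08 (SE). The summed level of this list had a median of 1545 CPM in normal steers, with a range of 1038 to 4432, and of 1670 CPM in dark-cutting steers, with a range of 1128 to 2185. This median, on the plain library total, was higher in dark-cutting steers, unlike 4 of the 5 fold changes, which are after TMM scaling. The most abundant of the list were miR-16a at a mean of 642 CPM and miR-486 at 561 CPM, while miR-144 had 8.08 CPM. miR-486, also on the skeletal muscle list, was the 1 above 0, with 0.08 ± 0.09 (SE). The median r of the red blood cell list was 0.26 with miR-143 and -0.0032 with miR-145, and the part of this list in either level was not tested.

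Of 8 fibroblast miRNAs all lay below 0, with a median of -0.10 and 0 with p under 0.05 before adjustment. Their summed level had a median of 5049 CPM in normal steers, with a range of 3697 to 13851, and of 5390 CPM in dark-cutting steers, with a range of 3381 to 7014. The summed median was thus higher in dark-cutting steers, unlike the fold changes, which are after TMM scaling. Summed levels are on the plain library total, under which the median fold change over all miRNAs shifted by 0.11. Of 8 endothelial miRNAs, 3 lay above and 5 below 0, with a median of -0.02. miR-126-3p, the most abundant of them, had a mean of 4829 CPM and a log2 fold change of -0.10 ± 0.07 (SE). Of 13 other vessel wall miRNAs, which include the most abundant ones miR-26a (-0.02 ± 0.05, SE) and miR-24-3p (-0.06 ± 0.08, SE), 5 lay above and 8 below 0, and 2 had p under 0.05 before adjustment, miR-146a and miR-204, the latter with -0.50 ± 0.24 (SE) and named after its values were seen. The list had a median of -0.0071. The part of these lists in the levels of the pair was not tested. Of 7 skeletal muscle miRNAs, 3 lay above and 4 below 0 with a median of -0.02, and 1 had p under 0.05 before adjustment, miR-206 with 0.16 ± 0.06 (SE), named after its values were seen. Both tested liver miRNAs lay above 0, with a median of 0.02.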

How the data were processed

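Small RNA libraries were made with a NEXTflex kit from total RNA of the biopsies, per the labels' protocols. FastQC, Trimmomatic 0.32 and DESeq2 1.34.0 are named in the submitters' processing notes. An aligner, counter, miRNA reference, build or collapsing of repeated reads was not given in the sources used here. Whole-number counts per mature miRNA and steer were deposited by the authors without normalization. A table the authors deposited holds, per the file headers, the mean normalized signal, the log2 fold change with its SE, the Wald score, the p-value and the adjusted p-value of a contrast it does not name.

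The test of counts was that of edgeR 4.0.16 under R 4.3.3 (quasi-likelihood F test, robust, TMM, Benjamini-Hochberg adjustment over all tested miRNAs, threshold 0.05). For phenotype, filterByExpr with a minimum count of 10 left 252 miRNAs. For degrees and trend, a miRNA had to reach a count of 10 or its equivalent in 8 or more libraries, and a total of 15, which left 272, or 251 within dark-cutting steers. Log2 CPM used a prior count of 2, and ratios a pseudocount of 0.5. Ratios and correlations used two-sided permutation tests with 100000 resamples, exact where a group had under 10 steers, adjusted over 5 and 13 tests. DESeq2 1.42.0, limma-voom (limma 3.58.1), other scalings, no filter, the range of animal numbers and leaving out steers were alternatives. The fits were tested on simulated data.

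Named miRNAs are the members, the 5 highest and 3 lowest in r with each, those of the ratio and correlation families, the neighbours in mean CPM and the 2 most abundant tested of each list. The members and lists were chosen with earlier results of these data known.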

Additional observations from a re-analysis of the deposited data

How the results depend on the processing

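No paired analysis was possible, because each library comes from 1 steer and each steer has 1 phenotype label. The replicate numbers used here only count the steers of a group. Of the fold changes under alternatives other than leaving out 1 steer, 125 kept their direction and side of the threshold and 5 changed sign, all of miR-145 and none called. These were dark-cutting against normal at animal numbers of 600 or above (-0.020), degree 2/3 with the total without miR-1 as scaling (0.025) and without normal replicates 33 and 42 (0.064), the trend within dark-cutting steers (0.010) and the higher against the lower degrees (0.015), both with the total without miR-1. The cause was not tested. Single steers were left out in turn, for degrees, slopes and the higher against the lower degrees only dark-cutting ones. This changed a sign in 14 fits, with 340 others keeping it, and changed no call. The ranges were -0.14 to 0.14 for miR-143 at degree 1/4 (below 0 without replicate 3 or 8), -0.0030 to 0.24 for miR-145 there (below 0 without replicate 3), -0.081 to 0.041 for miR-145 at degree 1/3 (below 0 without replicate 1, 2, 5 or 8), -0.39 to 0.045 for its trend within dark-cutting steers (above 0 without degree 1/4 replicate 1 or 3) and -0.079 to 0.028 for the higher against the lower degrees (above 0 without degree 1/4 replicate 1 or 3, degree 1/3 replicate 8 or degree 2/3 replicate 1 or 3). For dark-cutting against normal the ranges were -0.31 to -0.18 for miR-143 and 0.02 to 0.13 for miR-145.

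Among ratios, miR-143 over miR-145 missed the threshold at animal numbers of 600 or above (-0.27). Below 600, miR-143 over miR-1 turned to 0.080, and miR-145 passed over miR-1 (0.54) and over miR-126-3p (0.41). Without normal replicates 33 and 42, an alternative chosen after seeing the data, miR-145 passed over miR-1 (0.28) and over miR-126-3p (0.27). These steers were left out for their high levels of the pair, which could only raise both values. The r of miR-143 with miR-145 missed the adjusted threshold in dark-cutting steers (0.36) and below 600 (0.47). With the total without miR-1 as denominator, the mean shares were 15.7% and 0.144%.

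Where they kept their sign, the r values gained a call in 10 fits and lost one in 14. They changed sign in 27 other fits, whose calls are not in those counts. With the total without miR-1, they were -0.10 (miR-143 with miR-21-5p), -0.059 (miR-143 with miR-1), and, for miR-145, -0.10 with miR-133a, -0.038 with miR-451 and -0.0025 with depth. With total count alone they were 0.11 (miR-143 with miR-133a), -0.53 (miR-143 with miR-1) and 0.43 (miR-145 with miR-126-3p). In normal steers they were 0.036 (miR-143 with miR-133a), 0.0011 (miR-143 with depth) and -0.014 (miR-145 with miR-451). In dark-cutting steers they were -0.010 (miR-143 with miR-451) and, for miR-145, 0.016 with miR-126-3p, -0.16 with miR-21-5p, -0.066 with miR-133a and -0.049 with depth. Below 600 they were 0.0085 (miR-143 with depth), 0.20 (miR-145 with miR-126-3p) and -0.30 (miR-145 with miR-21-5p). At 600 or above they were 0.0026 (miR-143 with miR-133a), -0.042 (miR-145 with miR-133a) and -0.11 (miR-145 with miR-451). Without normal replicates 33 and 42 they were 0.0054 (miR-143 with miR-133a), 0.088 (miR-145 with miR-126-3p) and -0.13 (miR-145 with miR-21-5p). Without the 2 steers farthest from the median of miR-21-5p, or of depth, they were -0.066 (miR-145 with miR-21-5p) and -0.017 (miR-145 with depth).

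Degrees 1/2, 2/3 and 3/4 held 3, 4 and 1 steers, which limits their precision more than depth does.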
